A study of Mus musculus with 6 samples.

Results

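Cycling epithelial cells of the C3(1)-Tag mouse mammary gland were selected on their own RNA: a cell was a member if it held at least 1 UMI of Epcam, the surface adhesion molecule of epithelial cells, no UMI of Ptprc, the pan-leukocyte antigen CD45, and at least 1 UMI of 3 or more of the 5 genes Cenpf, Ube2c, Ccnb1, Cdc20 and Top2a. A UMI is a molecular barcode that marks 1 captured RNA molecule. The rule found 4386 members, which were 43.6% of the 10064 Epcam-positive, Ptprc-negative cells and 19.7% of the 22244 cells kept from 23835 barcodes. Because the members were chosen by these transcripts, the levels of the 5 genes in them are a description and carry no test.

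A dividing epithelial cell copies its DNA in S phase and separates the copies in mitosis, and each stage has its own transcripts. The 5 genes of the rule belong to the later stages, so a cell in early S phase can lack all of them. The mammary duct has an inner luminal layer, with hormone-sensing cells that carry steroid receptors and progenitors that give rise to the milk-secreting alveolar cells, and an outer layer of contractile basal (myoepithelial) cells. In the C3(1)-Tag line the SV40 large T antigen, a viral protein that binds RB and p53 and so removes the brake on entry into S phase, is driven by the C3(1) promoter.

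Single-cell RNA sequencing covered 6 libraries from female C3TAG mice, which the study's methods place on the FVB/NJ background, with 2 libraries in each of 3 states. Prepuberty was the whole gland at 5 weeks, DCIS (ductal carcinoma in situ) the whole gland with in situ lesions at 14 weeks, and Tumor a palpable tumour from mice older than 18 weeks. All animals carried the transgene, so no state is a gland without the T antigen, and age, tissue sampled and disease state change together. The labels do not say whether the 2 libraries of a state came from different animals, so every p-value describes the spread between libraries. By the labels every library had the same overnight digestion and kit version 2, but the methods of the study name a tumour dissociation kit for the tumours and kit version 3 for Tumor 2. Any effect of these cannot be told apart from the state or the library.

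The genes of the rule act at successive steps of division. Top2a encodes the topoisomerase that untangles DNA before it is separated, Cenpf a kinetochore protein, Ccnb1 the cyclin that partners CDK1 at the entry to mitosis, Cdc20 the activator and Ube2c the ubiquitin-conjugating enzyme of the anaphase-promoting complex. Their promoters are printed because all 5 genes define the members, and genes of late cell cycle are known for CCAAT boxes and for the CHR element. Each line gives 150 bases before and 50 bases after the RefSeq start site on build GRCm38.p6, 5′ to 3′ on the strand of the gene, with capitals marking CCAAT (or its reverse ATTGG) and the CHR letters TTTGAA (or TTCAAA).
Cenpf, chr1:189688037-189688236, minus strand: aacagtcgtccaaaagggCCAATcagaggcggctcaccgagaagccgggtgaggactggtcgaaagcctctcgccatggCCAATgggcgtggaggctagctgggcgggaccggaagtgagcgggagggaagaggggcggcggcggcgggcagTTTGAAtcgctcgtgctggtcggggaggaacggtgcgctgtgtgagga
Ube2c, chr2:164769779-164769978, plus strand: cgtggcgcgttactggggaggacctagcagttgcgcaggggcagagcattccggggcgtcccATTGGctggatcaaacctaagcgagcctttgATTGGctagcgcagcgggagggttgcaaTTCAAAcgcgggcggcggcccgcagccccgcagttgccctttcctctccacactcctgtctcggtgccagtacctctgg
Ccnb1, chr13:100786437-100786636, minus strand: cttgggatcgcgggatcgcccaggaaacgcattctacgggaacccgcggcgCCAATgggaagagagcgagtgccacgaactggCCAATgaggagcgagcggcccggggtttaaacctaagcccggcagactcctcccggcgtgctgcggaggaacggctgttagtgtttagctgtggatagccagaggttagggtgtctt
Cdc20, chr4:118437294-118437493, minus strand: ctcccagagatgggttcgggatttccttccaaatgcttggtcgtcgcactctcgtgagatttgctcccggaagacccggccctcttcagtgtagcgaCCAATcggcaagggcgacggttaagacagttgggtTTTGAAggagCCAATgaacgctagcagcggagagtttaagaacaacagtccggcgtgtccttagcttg
Top2a, chr11:99024140-99024339, minus strand: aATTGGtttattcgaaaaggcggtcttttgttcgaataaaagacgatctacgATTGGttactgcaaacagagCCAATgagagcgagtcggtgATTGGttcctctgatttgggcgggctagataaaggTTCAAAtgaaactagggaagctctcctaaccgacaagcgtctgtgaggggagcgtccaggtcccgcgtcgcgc

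The CCAAT letters occurred 2 times in Cenpf, Ube2c, Ccnb1 and Cdc20 and 4 times in Top2a, and TTTGAA occurred once in all but Ccnb1. Of 32851 mouse windows of this length, 28.6% held CCAAT, 11.2% held TTTGAA and 3.30% held both on either strand. A match is a description of letters and not of a bound site.

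In the members, values are given as CPM, the UMIs of a gene per 1000000 UMIs of all members of a library. Top2a stood at 236 and 162 CPM in Prepuberty 1 and 2, 450 and 302 in DCIS 1 and 2, and 245 and 804 in Tumor 1 and 2. Ube2c, in the same order, stood at 359, 222, 366, 292, 549 and 324 CPM. Cenpf stood at 145, 123, 223, 117, 278 and 602 CPM. Both cyclin B1 and its ubiquitin ligase activator were higher in each Tumor library than in any other: Ccnb1 had 58.1, 44.9, 75.4, 54.2, 168 and 142 CPM. Cdc20 had 79.4, 56.1, 168, 130, 221 and 211 CPM. The Epcam level was 1146, 1176, 2463, 1830, 2425 and 2469 CPM.

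The label was checked with division genes that the rule did not use. The mitosis list of 24 other genes, among them Cdk1, Plk1, Aurka and Birc5, summed to 2006, 1383, 2460, 1849, 2930 and 4728 CPM in the members. In the 2987 Epcam-positive, Ptprc-negative cells with none of the 5 genes, here called rule-negative, it summed to 168, 97.8, 179, 122, 510 and 312 CPM. Mki67, the antigen Ki-67 of dividing cells, stood at 93.8, 62.8, 84.8, 68.7, 90.3 and 321 CPM in the members and at 2.78, 0, 6.24, 2.96, 7.22 and 12.05 CPM in the rule-negative cells. The rule therefore took cells with mitotic RNA in every library, and Tumor 2 had more Mki67 than the other libraries. At the threshold, 1032 members held exactly 3 of the 5 genes and 1198 cells outside held exactly 2. Just inside it Mki67 stood at 71.5, 72.9, 47.9, 42.3, 61.7 and 161 CPM, and just outside at 30.0, 16.4, 39.1, 31.8, 38.6 and 89.9 CPM.

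The libraries differed in depth and in cells of other types. Median UMIs per kept cell ranged from 6624 in DCIS 2 to 13745 in Tumor 2, and members held more UMIs than rule-negative cells in every library, with medians of 16021 to 40243 against 6175 to 8537. No 2 libraries of a state had counts that agreed within sampling noise, so each was counted as a sample. Between 9 and 39 cell barcodes were shared by any pair of libraries, and 10 by members. Scrublet, at a share set by the number of cells, marked 155 members as doublets. Fibroblast markers (Pdgfra, Dcn, Lum, Col1a1, Col1a2, Col3a1) summed to 44.9 to 366 CPM in the members, against 570 to 5797 CPM in the rule-negative cells of the same libraries. Endothelial markers summed to 11.1 to 32.2 CPM, macrophage markers to 14.4 to 119 CPM, and the T cell genes Cd3d, Cd3e, Cd3g and Trac to 0 to 2.24 CPM. Prepuberty 2 gave only 11 members, so comparisons with Prepuberty rest mainly on Prepuberty 1, without which edgeR called no gene against DCIS or Tumor, beside 1284 and 1772 genes at an unadjusted p under 0.05.

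Dividing cells made up a larger share of the epithelium in both tumours than in any gland. The share was 29.8% in Prepuberty 1 (317 of 1064 cells, exact 95% binomial interval 27.1 to 32.6) and 4.15% in Prepuberty 2 (11 of 265, 2.09 to 7.31). It was 33.8% in DCIS 1 (586 of 1735, 31.6 to 36.1) and 20.8% in DCIS 2 (355 of 1707, 18.9 to 22.8). It was 61.4% in Tumor 1 (2179 of 3547, 59.8 to 63.0) and 53.7% in Tumor 2 (938 of 1746, 51.4 to 56.1). The Tumor libraries lay above all others, while the DCIS and Prepuberty libraries overlapped, with Prepuberty 1 between DCIS 1 and DCIS 2. The intervals cover counting error only.

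State means were 57.6% for Tumor, 27.3% for DCIS and 17.0% for Prepuberty. Tumor exceeded DCIS by 30.3 points and Prepuberty by 40.6 points, each with p = 0.333 in a two-sided exact permutation test, the smallest p that 2 against 2 libraries can give. DCIS exceeded Prepuberty by 10.3 points (exact permutation p = 0.667), less than the distance between the 29.8% and 4.15% of the Prepuberty libraries. It was 23.1 points without Prepuberty 1 and turned to -2.51 points without Prepuberty 2, while Tumor exceeded Prepuberty by 53.4 and 27.8 points. Deeper cells show more of the 5 genes, so each cell was also thinned to 3000 UMIs. The share was then 11.2%, 0.498%, 15.0%, 7.38%, 28.9% and 27.8%, with the Tumor libraries still above the rest and differences of 17.2 points from DCIS and 22.5 points from Prepuberty. In the same order, Pdgfra-positive, Epcam-negative cells with 3 or more of the 5 genes made up 3.36%, 0%, 0.739%, 0%, 7.69% and 23.5%, and the 0 values came from 1324 and 787 cells, which allow up to 0.227% and 0.381%. In Tumor 2 this class was not free of tumour and basal RNA: 53.04% of its cells held a T antigen UMI, 55.9% a Krt14 UMI and 37.7% a Trp63 UMI.

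**Figure D1:**
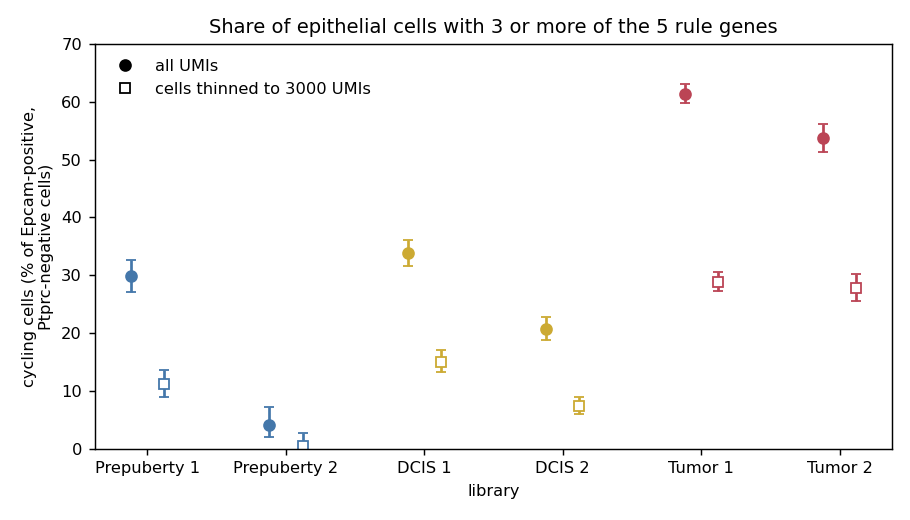
Share of Epcam-positive, Ptprc-negative cells that held 3 or more of the 5 rule genes (y axis, %) by library (x axis), with all UMIs (filled circles) and after thinning each cell to 3000 UMIs (open squares); bars are exact 95% binomial intervals. Both tumours, at 61.4% and 53.7%, sit above the 4 gland libraries at either depth.

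S-phase RNA was lowest in the dividing cells of the Prepuberty glands. The S-phase list holds 24 genes of replication licensing and nucleotide supply. Its UMIs per 10000 UMIs of a member had medians of 6.96 and 9.10 in Prepuberty 1 and 2, 14.1 and 13.8 in DCIS 1 and 2, and 18.4 and 20.1 in Tumor 1 and 2. These medians did not overlap between the 3 states. The mitosis list had medians of 18.0, 14.1, 20.5, 15.5, 26.3 and 43.2, highest in the tumours, with DCIS 2 below Prepuberty 1. Members with more S-phase than mitosis UMIs made up 13.2%, 36.4%, 41.3%, 45.4%, 36.2% and 27.9%, and 16.8%, 27.3%, 35.6%, 38.8%, 35.4% and 27.9% after thinning. By this measure the Prepuberty 2 value rests on 4 of 11 cells.

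**Figure D2:**
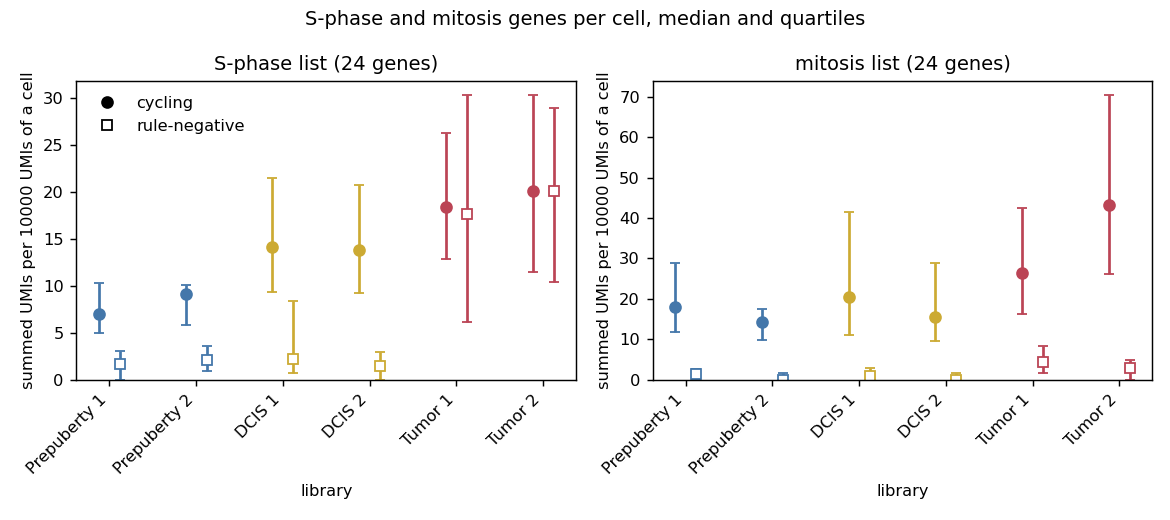
Summed UMIs of the S-phase list (left) and the mitosis list (right) per 10000 UMIs of a cell (y axes) by library (x axes), for cycling cells (filled circles) and rule-negative cells (open squares); points are medians and bars the quartiles over cells. In the rule-negative cells of the tumours the S-phase medians, 17.7 and 20.1, stand at the level of the cycling cells, while their mitosis medians are 4.31 and 2.92.

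Rule-negative cells of the tumours held S-phase RNA at the level of the members. Their S-phase medians were 1.69, 2.09, 2.18 and 1.43 in the 4 gland libraries but 17.7 and 20.1 in Tumor 1 and 2. Mcm6, a subunit of the replicative helicase, stood at 43.0, 53.9, 121, 129, 92.3 and 116 CPM in the members and at 10.5, 5.11, 43.7, 18.5, 127 and 176 CPM in the rule-negative cells. Pcna, the sliding clamp of DNA polymerase, stood at 137 and 96.9 CPM in the rule-negative cells of Tumor 1 and 2, against 21.6 to 31.9 CPM in those of the glands. Cells without the 5 genes were thus not free of S-phase transcripts in the tumours, and the shares above count cells with late-cycle RNA and not all dividing cells.

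Gene by gene, sums of UMIs over the members of each library were compared between states by edgeR (quasi-likelihood F test), adjusted by the Benjamini-Hochberg method over 12753 genes at a threshold of 0.05. Between Tumor and DCIS 1.65% of genes were called higher and 2.58% lower, 210 and 329 genes. Between Tumor and Prepuberty 2.44% were higher and 3.14% lower, 311 and 401 genes, and between DCIS and Prepuberty 0.0235% passed, 3 genes, beside 1715 at an unadjusted p under 0.05 and 265 by DESeq2. Comparisons that share a state share its libraries. The count between Tumor and DCIS was 539 in all, 152 without DCIS 1, 37 without DCIS 2, 110 without Prepuberty 1, 123 without Prepuberty 2, 2383 without Tumor 1 and 1910 without Tumor 2. Between Tumor and Prepuberty it was 712, with 0 without Prepuberty 1, 27 without Prepuberty 2, 407 without DCIS 1, 409 without DCIS 2, 2260 without Tumor 1 and 2097 without Tumor 2.

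Of the 24 S-phase genes, 9 rose between Prepuberty and Tumor, beside 2.44% of all genes, and none fell. All 24 had a positive log2 fold change, with a median of 1.25 beside 0.10 over all genes tested. Rrm2, the small subunit of ribonucleotide reductase, had 19.7 and 20.2 CPM in Prepuberty 1 and 2, 46.1 and 42.3 in DCIS 1 and 2, and 79.3 and 106 in Tumor 1 and 2, a log2 fold change of 1.96 (SE 0.31, edgeR adjusted p = 0.0154). The 3 states did not overlap. Slbp, the histone mRNA binding protein, had 65.9, 83.0, 214, 178, 240 and 267 CPM (log2 fold change 1.59, SE 0.30, edgeR adjusted p = 0.026). Mcm3, another helicase subunit, rose from 28.2 and 44.9 CPM to 114 and 119 (1.56, SE 0.32, edgeR adjusted p = 0.0333), and Ccne1, the cyclin E of the G1 to S step, from 1.90 and 4.49 to 15.5 and 19.7 CPM (2.67, SE 0.58, edgeR adjusted p = 0.0383). The others were Cdc6, Tyms, Cdc45, Ccne2 and Pola1. The count of 9 fell to 0 without Prepuberty 1, to 0 without Prepuberty 2 and to 2 without DCIS 1 or DCIS 2, and was 13 without Tumor 1 and 15 without Tumor 2.

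Between Prepuberty and DCIS the same list had a median log2 fold change of 1.16 beside 0.01 over all genes. All 24 values were positive, and none passed the threshold; Mcm6 had 1.54 (SE 0.29, edgeR adjusted p = 0.143). The median was 1.34 without Prepuberty 1 and 1.12 without Prepuberty 2, and none passed. Without Tumor 1 or Tumor 2 in the fit 8 and 11 of them passed. Between DCIS and Tumor 17 of 24 were positive, the median was 0.22 beside 0.09 over all genes, and none passed. Of the 24 mitosis genes only Bub1, a spindle checkpoint kinase, rose between DCIS and Tumor, 1 of 24 beside 1.65% of all genes higher, from 10.7 and 8.99 CPM to 27.6 and 55.4 CPM (1.68, SE 0.36, edgeR adjusted p = 0.0421). It passed in 2 of 6 fits that left out 1 library, and the number of mitosis genes called was 0 without either DCIS or either Prepuberty library, 8 without Tumor 1 and 2 without Tumor 2. None of the 24 passed in the other comparisons.

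In the RB and p53 list of 18 genes the largest difference was at Cdkn2a, the locus of the CDK4/6 inhibitor p16 and of ARF. Prepuberty 1 and 2 had 1.55 and 0 CPM, DCIS 1 and 2 had 411 and 175, and Tumor 1 and 2 had 1371 and 1766. No state overlapped another. The log2 fold change was 7.76 (SE 0.69, edgeR adjusted p = 0.0266) between Prepuberty and DCIS and 2.07 (SE 0.47, edgeR adjusted p = 0.0471) between DCIS and Tumor. The first call was lost without Prepuberty 1, where the remaining library has no UMI and the difference is at least 45.3-fold, and without Prepuberty 2 (its values with 1 library left out ran from 7.09 to 15.57). The second held in 2 of 6 fits, at 1.57 to 2.72. Between Prepuberty and Tumor it was 9.83 (SE 0.73, edgeR adjusted p = 0.00224), lost only without Prepuberty 1, where the difference is at least 225-fold.

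Other members of that pathway divided between the states. Ccnd1, cyclin D1, had 17.4 and 49.4 CPM in Prepuberty, 7.95 and 11.99 in DCIS and 147 and 128 in Tumor. It was higher in both tumours than in any gland, by 3.45 against DCIS (SE 0.48, edgeR adjusted p = 0.015; 3.10 to 3.78 with 1 library left out, passing in 4 of 6 fits). Gadd45a, a stress-induced growth arrest gene, had 168, 123, 454, 372, 101 and 96.1 CPM and fell by 2.40 between DCIS and Tumor (SE 0.36, edgeR adjusted p = 0.0164, passing in 4 of 6 fits). Trp53, the gene of p53, had 56.5, 78.6, 81.0, 91.4, 166 and 192 CPM and rose by 1.24 between Prepuberty and Tumor (SE 0.30, edgeR adjusted p = 0.0492, passing in 2 of 6 fits). Cdkn1a, the p53 target p21, had 106, 110, 132, 147, 312 and 213 CPM, with an adjusted p of 0.33 against DCIS and 0.104 against Prepuberty in edgeR. Rb1 had 26.9, 8.98, 28.6, 27.1, 10.8 and 28.7 CPM, with overlapping states. Over the list, 2 rose and 1 fell between DCIS and Tumor (median 0.07), beside 1.65% of all genes higher and 2.58% lower. Between Prepuberty and Tumor 3 rose (median 0.18), beside 2.44% of all genes higher. From Prepuberty to DCIS a single gene rose (median 0.24), beside 0.0235% of all genes called in either direction. Over all genes the medians were 0.09, 0.10 and 0.01.

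The T antigen itself was counted in more dividing cells at each later state. Members with at least 1 UMI of its feature made up 27.4% in Prepuberty 1 (87 of 317, exact 95% interval 22.6 to 32.7) and 9.09% in Prepuberty 2 (1 of 11, 0.230 to 41.3). They made up 41.5% and 34.4% in DCIS 1 and 2, and 79.5% and 68.4% in Tumor 1 and 2. The states did not overlap, and each difference, 19.6 points from Prepuberty to DCIS and 36.1 points from DCIS to Tumor, had an exact permutation p of 0.333, the smallest possible. The first was 28.8 points without Prepuberty 1 and 10.5 points without Prepuberty 2. At 3000 UMIs per cell the share was 4.21%, 0%, 10.9%, 9.20%, 42.0% and 17.1%, where 0 of 11 cells allows up to 27.3%. With all UMIs, rule-negative epithelial cells held it in 0.815%, 0%, 5.76%, 0.505%, 33.4% and 22.4%. Pdgfra-positive, Epcam-negative cells of the same libraries, at median depths of 7759 to 14818 UMIs, held it in 0.168%, 0.0755%, 0.739%, 0%, 13.8% and 53.04%. At 3000 UMIs per cell the rule-negative cells held it in 0.488%, 0%, 2.51%, 0.111%, 22.7% and 11.5%. The Pdgfra-positive cells then held it in 0%, 0%, 0.259%, 0%, 3.08% and 18.1%.

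As a level, the T antigen stood at 15.6, 2.24, 38.6, 22.8, 270 and 62.8 CPM in the members. Tumor 1 was well above Tumor 2. The log2 fold change was 3.63 between Prepuberty and Tumor (SE 0.87, edgeR adjusted p = 0.0496; 1.84 to 6.25 with 1 library left out, passing in 4 of 6 fits), 2.20 between DCIS and Tumor (SE 0.77, adjusted p = 0.133) and 1.43 between Prepuberty and DCIS (SE 0.83, adjusted p = 0.476). At 3000 UMIs the share of members among epithelial cells with a T antigen UMI, against that among cells without one, was 38.9% (7 of 18) against 9.38% in Prepuberty 1, 19.5% against 13.3% in DCIS 1, 12.7% against 6.17% in DCIS 2, 32.6% against 25.7% in Tumor 1 and 28.4% against 27.5% in Tumor 2. Prepuberty 2 had no thinned cell with the transcript. These are shares over cells of 1 library each and were not tested.

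To ask which lineage the dividing cells belonged to, 3 lists of 8 markers were counted per cell. The hormone-sensing luminal list holds Esr1, Pgr, Prlr, Areg, Cited1, Foxa1, Prom1 and Tnfsf11. The secretory luminal progenitor list holds Kit, Elf5, Aldh1a3, Cd14, Csn3, Ltf, Wfdc18 and Plet1. The basal myoepithelial list holds Krt5, Krt14, Krt17, Trp63, Acta2, Myh11, Mylk and Oxtr. A cell was called for the list with strictly the most detected genes if at least 3 were seen. Such a call is a range on a count and not a cell type, and 845 members missed a call with 2 genes of their best list while 946 made the count with 3.

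Progenitor-like calls were the most frequent in every library. They took 74.1% and 81.8% of the members of Prepuberty 1 and 2, 60.4% and 68.5% in DCIS 1 and 2, and 68.8% and 41.0% in Tumor 1 and 2. Hormone-sensing-like calls took 13.2%, 9.09%, 1.54%, 7.32%, 0.551% and 0.959%, lowest in the tumours, with no overlap between any 2 states at full depth. With cells thinned to 3000 UMIs the states overlapped, and the exact permutation p was 1 in each of the 3 comparisons. Myoepithelial-like calls took 2.21%, 0%, 5.63%, 3.38%, 1.28% and 21.0%, high only in Tumor 2. Of all Tumor 2 members, 96.5% held Krt14, 67.7% Krt17, 34.97% Trp63, 18.7% Mylk and 12.05% Krt5. Acta2 was seen in 0.853% of them, Oxtr in 1.07% and Myh11 in 0.213%. The Tumor 2 calls therefore count basal markers with little Acta2, Oxtr or Myh11 RNA, and do not show contractile cells. Which genes made each call was not tested. Members with no call made up 5.05%, 0%, 27.0%, 14.4%, 27.8% and 28.4%. Differences of state means were a fall of 6.74 points in hormone-sensing-like calls from Prepuberty to DCIS and of 3.67 points from DCIS to Tumor, each with the smallest possible exact permutation p of 0.333. Progenitor-like calls differed by -13.5 points between DCIS and Prepuberty (exact permutation p = 0.333) and by -9.51 points between Tumor and DCIS (exact permutation p = 1).

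**Figure D3:**
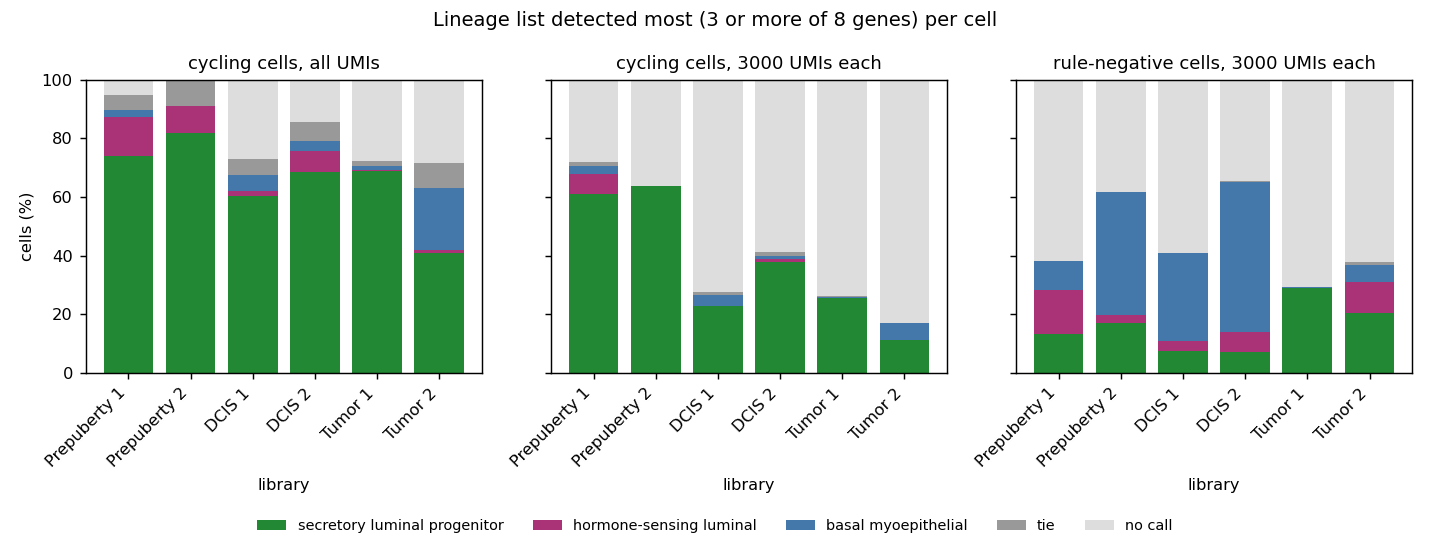
Share of cells with each lineage call (y axis, %) by library (x axis), for cycling cells with all UMIs (left), cycling cells thinned to 3000 UMIs (middle) and rule-negative cells thinned to 3000 UMIs (right). Colours mark the calls, ties and cells with no call. At 3000 UMIs cycling cells of the Prepuberty libraries are mostly progenitor-like, at 61.2% and 63.6%, and most cycling cells of the DCIS and Tumor libraries have no call.

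At 3000 UMIs per cell fewer markers were seen and more cells lacked a call. Progenitor-like calls then took 61.2%, 63.6%, 22.9%, 37.9%, 25.5% and 11.2% of members, and no call 28.2%, 36.4%, 72.5%, 58.9%, 73.9% and 82.9%. Hormone-sensing-like calls were left at 6.80% in Prepuberty 1, 0.862% in DCIS 2 and 0% in the other libraries, and myoepithelial-like calls at 2.59%, 0%, 3.52%, 1.15%, 0.373% and 5.67%. The Prepuberty libraries stood 32.0 points above DCIS in progenitor-like calls and 44.0 points above Tumor, without overlap (exact permutation p = 0.333 each). Rule-negative cells of the same libraries were progenitor-like in 13.2%, 16.9%, 7.34%, 7.11%, 28.8% and 20.6% and myoepithelial-like in 10.0%, 42.0%, 29.9%, 51.2%, 0.606% and 5.74%. In the glands the members thus held a larger share of progenitor-like calls than the rule-negative cells. In the tumours the order turned with depth: with all UMIs 68.8% and 41.0% of members and 38.6% and 28.2% of rule-negative cells were progenitor-like, at 6000 UMIs 43.4% and 19.6% against 37.6% and 24.7%, and at 3000 UMIs the members had the smaller share in both.

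Seen from the lineages, dividing cells were found among progenitor-like and among hormone-sensing-like cells of all 6 libraries with all UMIs, and in fewer libraries after thinning. With all UMIs, members made up 54.8%, 14.3%, 55.7%, 48.1%, 68.9% and 58.7% of progenitor-like cells and 18.5%, 5.56%, 11.8%, 11.98%, 75% (12 of 16) and 20.5% of hormone-sensing-like cells. With every cell at 3000 UMIs, 13.6% of progenitor-like cells were members in Prepuberty 1 (45 of 332), 0% in Prepuberty 2 (0 of 54, which allows up to 5.56%), 13.7% in DCIS 1, 11.7% in DCIS 2, 25.2% in Tumor 1 and 21.7% in Tumor 2. Of hormone-sensing-like cells, 9.01% were members in Prepuberty 1 (10 of 111), 1.30% in DCIS 2 (1 of 77), and none of 6 in Prepuberty 2, 19 in DCIS 1 and 26 in Tumor 2. Of myoepithelial-like cells, 7.14% were members in Prepuberty 1 (4 of 56), none of 88 in Prepuberty 2, 4.43% in DCIS 1 (9 of 203), 0.202% in DCIS 2 (1 of 496), 23.5% in Tumor 1 (4 of 17) and 22.0% in Tumor 2 (20 of 91). The gland values rest on few members, and the calls themselves depend on marker RNA.

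Members of Prepuberty often carried markers of more than 1 luminal lineage. At least 3 hormone-sensing and at least 3 progenitor markers were seen together in 53%, 72.7%, 7.51%, 30.1%, 6.65% and 4.90% of members, and in 3.88%, 0%, 0%, 1.44%, 0.0466% and 0% at 3000 UMIs. Progenitor and myoepithelial markers were seen together in 7.26%, 45.5%, 15.0%, 17.7%, 4.31% and 22.4%, and in 0.324%, 0%, 1.06%, 0%, 0.326% and 0.436% at 3000 UMIs. The part of doublets and free RNA in these cells was not tested. With the marked doublets left out, the cycling shares were 30.4%, 4.30%, 33.8%, 21.0%, 61.1% and 53.5%.

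Of the hormone-sensing genes Pgr and Prom1 fell between DCIS and Tumor. Pgr, the progesterone receptor, had 89.4 and 94.3 CPM in Prepuberty 1 and 2, 4.07 and 17.2 in DCIS 1 and 2, and 0.166 and 0.383 in Tumor 1 and 2. The 3 states did not overlap. It fell by 5.69 between DCIS and Tumor (log2, SE 0.75, edgeR adjusted p = 0.0142; -6.46 to -4.29 with 1 library left out, passing in 5 of 6 fits) and by 8.65 between Prepuberty and Tumor (SE 0.82, edgeR adjusted p = 0.00481, lost without Prepuberty 1). Between Prepuberty and DCIS its log2 difference was -2.96 (SE 0.62, edgeR adjusted p = 0.187). In Pdgfra-positive, Epcam-negative cells Pgr stood at 0 to 12.2 CPM. In DCIS 1 and 2 it stood at 5.88 and 12.2 CPM in these cells and at 16.6 and 36.7 CPM in rule-negative cells. The members of DCIS 1 lay below both classes and those of DCIS 2 between them. The part of RNA from other cells was not tested.

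Of the 7 hormone-sensing genes tested, 2 fell between DCIS and Tumor (median -2.24 beside 0.09 over all genes) and 5 fell between Prepuberty and Tumor (median -3.17 beside 0.10). Over all genes 2.58% and 3.14% were lower in these comparisons. Prom1, which encodes prominin-1, had 38.5, 33.7, 38.1, 30.8, 7.60 and 11.2 CPM and fell by 2.24 between DCIS and Tumor (SE 0.31, edgeR adjusted p = 0.015). Prlr, the prolactin receptor, had 253, 94.3, 21.1, 63.1, 27.2 and 18.6 CPM and fell by 3.17 between Prepuberty and Tumor (SE 0.69, edgeR adjusted p = 0.0383). Cited1, a transcriptional co-regulator of hormone-sensing cells, and Foxa1, the pioneer factor of the oestrogen receptor, fell by 5.42 (SE 1.00, edgeR adjusted p = 0.0247) and 4.81 (SE 1.10, edgeR adjusted p = 0.0433) in that comparison. Esr1, the oestrogen receptor, was low throughout, at 11.3, 2.24, 3.25, 6.22, 0.639 and 2.34 CPM. Areg, the EGF family ligand induced by oestrogen, went the other way at 62.7, 18.0, 15.99, 35.2, 416 and 91.4 CPM, highest in the tumours, with an adjusted p of 0.0801 between DCIS and Tumor in edgeR. Tnfsf11, the ligand RANKL, was too low to test, at 0, 0, 0.632, 0, 0.947 and 5.996 CPM. Without DCIS 2 or Prepuberty 1, 1 of the 7 fell between DCIS and Tumor; between Prepuberty and Tumor 0 fell without Prepuberty 1 and 1 without Prepuberty 2.

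Progenitor genes were kept unevenly. Wfdc18, a secreted whey acidic protein family member, had 6388, 8587, 3199, 4948, 576 and 955 CPM, with no overlap between states, and was lower in Tumor than in DCIS by 2.80 (SE 0.40, edgeR adjusted p = 0.0152; 5 of 6 fits) and lower than in Prepuberty by 3.51 (SE 0.41, edgeR adjusted p = 0.00815). At 3000 UMIs it was seen in 87.4%, 100%, 74.3%, 86.2%, 42.5% and 36.8% of members and in 13.8%, 2.41%, 11.9%, 6.52%, 7.69% and 0.844% of Pdgfra-positive cells. Ltf, the iron-binding milk protein lactoferrin, had 320, 146, 250, 349, 11.7 and 38.7 CPM and fell by 4.01 between DCIS and Tumor (SE 0.62, edgeR adjusted p = 0.0176; 5 of 6 fits). Cd14, the lipopolysaccharide co-receptor, had 318, 368, 72.3, 137, 49.4 and 25.7 CPM and fell by 3.32 between Prepuberty and Tumor (SE 0.52, edgeR adjusted p = 0.0154).

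The receptor kinase gene Kit had 77.1, 67.3, 45.9, 53.6, 21.0 and 49.3 CPM, Aldh1a3, a retinaldehyde dehydrogenase gene, 112, 137, 56.6, 81.7, 68.4 and 93.3 CPM, and the alveolar transcription factor gene Elf5 43.3, 20.2, 14.3, 17.7, 14.0 and 6.21 CPM; none of the 3 passed in any comparison. Csn3, kappa-casein, stood at 324, 305, 237, 376 and 346 CPM in 5 libraries and at 9.91 in Tumor 2. Of the 8 progenitor genes 2 fell between DCIS and Tumor (median -0.96 beside 0.09 over all genes), where 2.58% of all genes were lower. Between Prepuberty and Tumor 3 fell (median -1.64 beside 0.10), where 3.14% of all genes were lower. No progenitor gene was called between DCIS and Tumor without DCIS 2, and none between Prepuberty and Tumor without Prepuberty 1 or without Prepuberty 2.

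Several basal genes differed between the 2 tumours. Krt14, a basal keratin, had 139, 162, 339, 139, 451 and 2018 CPM, and Trp63, the basal factor p63, had 1.66, 0, 2.89, 0.444, 0.758 and 32.1 CPM. Krt5, the keratin partner of Krt14, had 4.40, 0, 5.42, 2.44, 0.592 and 16.2 CPM. These 3 were highest in Tumor 2. Krt17, another basal keratin, was not: it had 125, 426, 609, 391, 805 and 343 CPM, highest in Tumor 1. Mylk, the myosin light chain kinase, had 4.40, 4.49, 7.86, 8.99, 0.971 and 11.4 CPM, also highest in Tumor 2. Acta2, the smooth muscle actin of contractile myoepithelium, was lowest in Tumor 2, with 42.2, 31.4, 55.4, 39.0, 24.8 and 1.87 CPM in the members against 387, 951, 1934, 2218, 197 and 0.927 CPM in the rule-negative cells. None of the 8 genes passed between DCIS and Tumor (median -0.51), and 2 passed between Prepuberty and Tumor: Krt14 rose by 2.74 (SE 0.64, edgeR adjusted p = 0.0454; 1.56 to 3.40, 4 of 6 fits) and the smooth muscle myosin gene Myh11 fell by 4.31 (SE 1.00, edgeR adjusted p = 0.045). Over all genes 2.44% were higher and 3.14% lower between Prepuberty and Tumor. Myh11 had no UMI in Prepuberty 2 and 8 and 2 UMIs in the tumours, so that no direction can be given without Prepuberty 1.

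**Figure D4:**
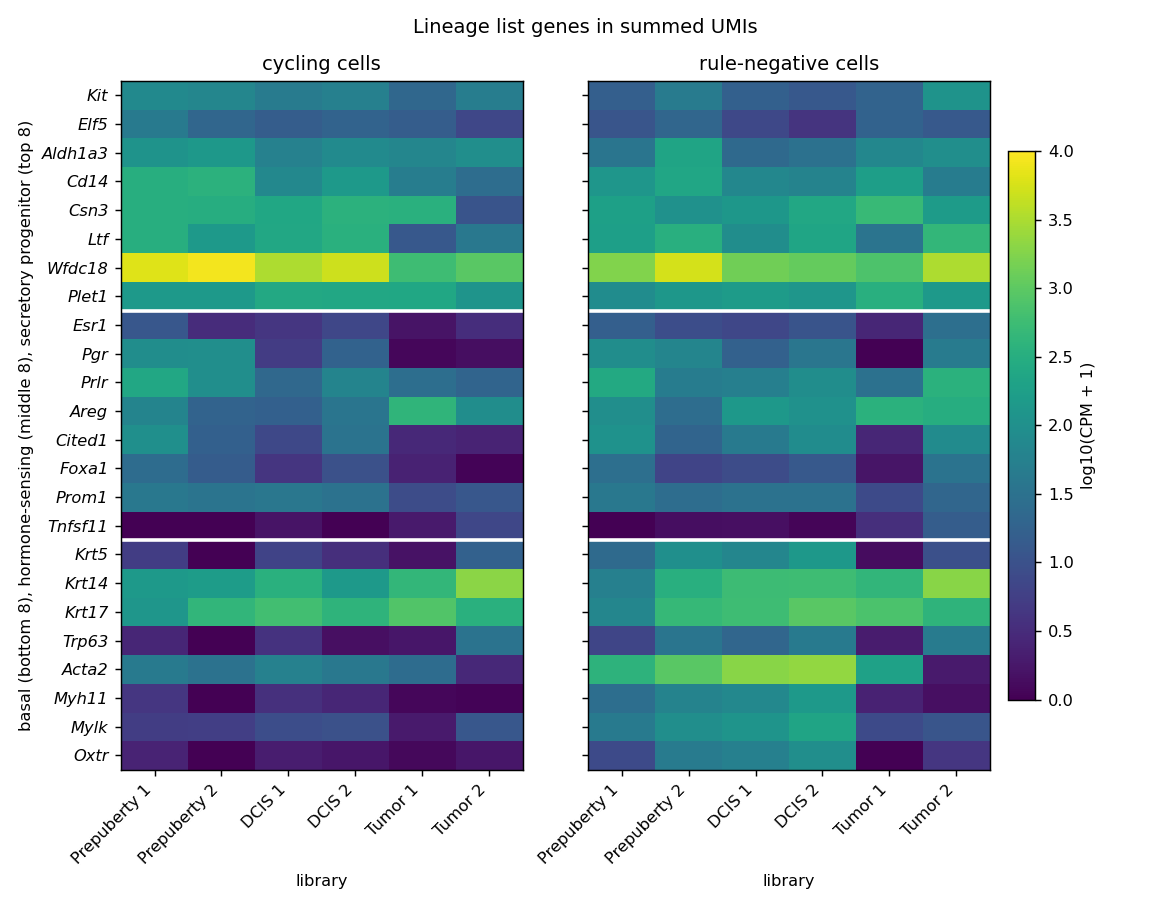
Levels of the lineage markers in the summed cycling cells (left) and rule-negative cells (right), as log10(CPM + 1), by gene and library. In cycling cells Pgr goes from 89.4 and 94.3 CPM in Prepuberty to under 1 CPM in the tumours, Areg is highest in the tumours, and Trp63 and Krt5 are highest in Tumor 2.

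Among 12 mammary lineage transcription factors, Pgr was the only one to fall between DCIS and Tumor (list median -0.75) and Pgr and Foxa1 fell between Prepuberty and Tumor (median -0.97), both calls lost without Prepuberty 1 and that of Foxa1 also without Prepuberty 2. Over all genes 2.58% were lower between DCIS and Tumor and 3.14% between Prepuberty and Tumor. Sox9, a factor of luminal progenitors, had 236, 332, 225, 209, 208 and 210 CPM. Sox10 had 46.4, 31.4, 24.6, 45.2, 47.4 and 32.5 CPM, and Gata3, the luminal GATA factor, 302, 110, 99.7, 114, 67.7 and 79.4 CPM. Among 10 pan-epithelial genes the claudin genes Cldn3 and Cldn4 of the tight junction fell between DCIS and Tumor, Cldn3 from 696 and 669 to 320 and 286 CPM (log2 difference -1.50, SE 0.32, edgeR adjusted p = 0.0396) and Cldn4 from 150 and 270 to 68.3 and 61.4 CPM (-2.03, SE 0.45, adjusted p = 0.0459). Neither call held without a DCIS or a Prepuberty library. The simple epithelial keratin gene Krt18 had 4121, 5873, 2444, 3971, 2190 and 467 CPM, lowest in Tumor 2.

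Of the mesenchymal genes Vim, Twist1 and Cdh2 rose between DCIS and Tumor. Vim, the intermediate filament vimentin, had 42.2 and 15.7 CPM in Prepuberty, 26.4 and 13.0 in DCIS and 319 and 314 in Tumor, a rise of 3.67 over DCIS (SE 0.53, edgeR adjusted p = 0.0152; 3.25 to 4.18, 5 of 6 fits). Twist1, a transcription factor of epithelial-mesenchymal transition, had 1.66, 0, 0.542, 0.999, 18.3 and 12.8 CPM and rose by 4.03 over DCIS (SE 0.67, edgeR adjusted p = 0.0209, 2 of 6 fits). Cdh2, N-cadherin, had no UMI in the members of any Prepuberty or DCIS library (9, 14, 3 and 13 UMIs in their rule-negative cells) and 275 and 249 UMIs (6.51 and 10.6 CPM) in the tumours, at least 53.3-fold higher than DCIS against a floor of 3 UMIs over the state (at least 23.9-fold without DCIS 1 and 29.4-fold without DCIS 2, both of which lost the call) and at least 23.5-fold higher than Prepuberty (1.18-fold without Prepuberty 1).

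Zeb1 and Snai2, transcription factors of the same transition, had 2.14, 0, 2.17, 0.555, 2.13 and 16.9 CPM and 1.66, 0, 1.45, 0.444, 0.592 and 4.93 CPM, highest in Tumor 2, with Tumor 1 within the range of the glands. Of 9 mesenchymal genes 3 rose between DCIS and Tumor (median 2.47), beside 1.65% of all genes higher. Between Prepuberty and Tumor 5 rose (median 2.96), beside 2.44% of all genes higher. There Fn1, fibronectin, rose by 2.96 (SE 0.55, edgeR adjusted p = 0.0253) and S100a4 by 3.95 (SE 0.79, edgeR adjusted p = 0.0304). Fibroblast RNA was at 110 and 105 CPM in the DCIS members and 259 and 366 CPM in the Tumor members, and its part in this was not tested; without members that held 3 or more of the 6 fibroblast genes, 3 and 6 mesenchymal genes rose. The count between DCIS and Tumor was 1 without DCIS 1, 0 without DCIS 2 and 2 without either Prepuberty library, 6 without Tumor 1 and 4 without Tumor 2, and that between Prepuberty and Tumor was 0 without Prepuberty 1 or Prepuberty 2.

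Milk genes fell between DCIS and Tumor. Csn2, beta-casein, had 11.7 and 0 CPM in Prepuberty 1 and 2, 228 and 306 in DCIS 1 and 2, and 0.0237 and 0.638 in Tumor 1 and 2. The DCIS libraries stood above all others. It fell by 10.3 (log2, SE 1.16, edgeR adjusted p = 0.0116; -13.19 to -9.20 with 1 library left out) and passed in all 6 such fits. Csn1s2a, an alpha-casein gene, had 34.4, 0, 367, 399, 0.0237 and 0.468 CPM and fell by 11.2 (SE 1.35, edgeR adjusted p = 0.0121; -13.71 to -10.15, 6 of 6 fits). Of 10 milk and secretory genes 7 fell between DCIS and Tumor (median -5.67), the others being Csn1s1, Wap, Lalba, Ltf and Wfdc18, and 5 fell between Prepuberty and Tumor (median -3.80), of which Csn2, Csn1s2a and Lalba had no UMI in Prepuberty 2, so that no direction can be given for them without Prepuberty 1. Over all genes 2.58% were lower between DCIS and Tumor and 3.14% between Prepuberty and Tumor. None of the 10 passed between Prepuberty and DCIS. The number that fell between DCIS and Tumor was 3 without DCIS 2, 6 without either Prepuberty library, 10 without Tumor 1 and 8 without Tumor 2; that between Prepuberty and Tumor was 0 without Prepuberty 1 and 1 without Prepuberty 2.

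In the NF-kB list Saa1, Saa2, Icam1, Cebpd and F3 fell between DCIS and Tumor. Saa1 and Saa2, serum amyloid A proteins with similar sequences whose reads may be shared, had 61.8, 56.1, 140, 272, 0.0947 and 0 CPM and 17.8, 2.24, 76.7, 120, 0 and 0 CPM. Saa1 fell by 11.9 between DCIS and Tumor (SE 0.81, edgeR adjusted p = 0.00286, 6 of 6 fits), and Saa2 was lower by at least 2103-fold, or by at least 752-fold with Tumor 1 left out. Icam1, the leukocyte adhesion molecule, had 35.1, 71.8, 164, 102, 5.75 and 14.4 CPM and fell by 4.14 (SE 0.48, edgeR adjusted p = 0.0116, 6 of 6 fits). Cebpd, an acute phase transcription factor gene, and F3, tissue factor, fell by 2.82 and 2.50 with edgeR adjusted p of 0.018 and 0.0283, each in 3 of 6 fits. Of 11 genes of the NF-kB list 5 fell between DCIS and Tumor (median -2.82), beside 2.58% of all genes lower. Between Prepuberty and Tumor 4 fell (median -2.57), beside 3.14% of all genes lower. No gene of the list passed between Prepuberty and DCIS (median 1.11). The first count was 3 without DCIS 2 or either Prepuberty library, 11 without Tumor 1 and 8 without Tumor 2, and the second was 0 without Prepuberty 1 and 2 without Prepuberty 2.

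In the metabolic, interferon and stress lists 2 of 14, 1 of 12 and 3 of 12 genes passed between DCIS and Tumor, in either direction. Over all genes 1.65% were higher and 2.58% lower. Nothing is concluded about these lists from so few calls. Slc16a3, the lactate exporter MCT4, rose between DCIS and Tumor from 2.62 and 4.66 to 101 and 87.4 CPM (4.36, SE 0.95, edgeR adjusted p = 0.0426, 4 of 6 fits), and Vegfa, the angiogenic factor, from 6.96 and 9.33 to 71.2 and 47.7 CPM (2.56, SE 0.53, edgeR adjusted p = 0.037, 2 of 6 fits). These were 2 of 14 glycolysis and hypoxia genes (median 1.03). Of 12 interferon response genes Oasl2 fell between DCIS and Tumor (-1.28, SE 0.29, edgeR adjusted p = 0.0483), and Oasl2 and Ifit3 fell between Prepuberty and Tumor, calls lost without Prepuberty 1 or Prepuberty 2. Of 12 immediate early and heat shock genes Fosb, an AP-1 subunit gene, rose between DCIS and Tumor, from 3.52 and 6.44 to 289 and 53.8 CPM (4.88, SE 0.88, edgeR adjusted p = 0.0261; 2.92 to 5.67, 2 of 6 fits), and the chaperone genes Hspa1b and Hsph1 fell (-3.40 and -2.24, adjusted p = 0.0168 and 0.0164). Hspa1a, the inducible HSP70, had 10.6, 42.6, 1146, 1008, 173 and 18.7 CPM, highest in both DCIS libraries.

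The genes with the largest changes between DCIS and Tumor included rises of Acan, Edil3 and Hbb-bs. Acan, the cartilage proteoglycan aggrecan, had 0, 0, 1.17, 0, 102 and 118 CPM in the members. It rose by 7.10 (SE 0.85, edgeR adjusted p = 0.0142) and passed with each library left out, with 6.19 without DCIS 2 and at least 324-fold without DCIS 1, whose 13 UMIs are the only ones in gland members. Edil3, a matrix ligand of integrins, had 0.713, 0, 0.181, 0.333, 20.2 and 41.8 CPM and rose by 6.51 (SE 0.62, edgeR adjusted p = 0.00635; 6.03 to 6.97, 6 of 6 fits). Hbb-bs, adult beta-globin, which shares sequence with a paralog, had 1.19, 0, 0, 0, 19.6 and 102 CPM, at least 329-fold higher than DCIS (131 without Tumor 2 to 686 without Tumor 1). In rule-negative cells Hbb-bs stood at 148, 0, 0.462, 1.93, 0.688 and 4.63 CPM; a part of free red cell RNA was not tested.

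The other rises named for a large fitted log2 fold change were of low genes. These had no UMI or 1 UMI in DCIS, so their rank rests on the fit. Klra4, a lectin-like receptor of NK cells, was at least 40.5-fold higher in Tumor, Adra2a, the alpha-2A adrenoceptor, at least 19.3-fold and Slc9b2, a cation/proton exchanger, at least 10.9-fold. Each had no UMI in DCIS. Ptprn, a secretory granule protein, had 1 UMI in DCIS and a ratio of 130 (exact counting interval 23.3 to 5161). All 4 lost the call without any 1 of the DCIS or Prepuberty libraries, where the bounds of Klra4, Adra2a and Slc9b2 were lowest without DCIS 1, at 18.2, 8.67 and 4.88. Some stood higher in other cells of Tumor 2, with Slc9b2 at 2.30 CPM in the members and 77.6 CPM in Ptprc-positive cells, and Adra2a and Ptprn at 4.51 and 4.59 CPM in the members and 53.8 and 40.5 CPM in Pdgfra-positive cells; a part of free RNA was not tested.

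The largest falls included those of Tph1, Cxcl15, Fgb and Reg3g. Tph1, the first enzyme of serotonin synthesis in the mammary gland, had 8.68, 15.7, 30.5, 101, 0.166 and 0.0425 CPM and fell by 9.34 (SE 0.86, edgeR adjusted p = 0.00561; -10.70 to -8.25, 6 of 6 fits). Cxcl15, a neutrophil chemokine, had 191, 51.6, 19.7, 75.7, 0.0237 and 0.0850 CPM, with 3 UMIs in the tumours, and was lower in Tumor than in DCIS by a ratio of 983 (exact counting interval 335 to 4774). In the rule-negative cells of DCIS 1 and 2 Tph1 stood at 279 and 221 CPM, Cxcl15 at 120 and 185 and Fgb at 23.1 and 40.9, each above the members, and the part of RNA from those cells was not tested. Fgb, the fibrinogen beta chain, and Reg3g, an antimicrobial lectin, had no UMI in the tumours and were at least 177-fold and at least 124-fold lower. The Fgb call was lost without DCIS 2 (at least 97.0-fold) and the Reg3g call without DCIS 2 (at least 61.4-fold), Prepuberty 1 or Prepuberty 2. Without Tumor 1 the bounds were 63.3 and 44.5. In DCIS 1 and 2 Reg3g stood at 2.80 and 9.22 CPM in the members, 47.2 and 9.01 in the rule-negative cells and 152 and 11.1 in Pdgfra-positive cells, and the part of their RNA was not tested.

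Between Prepuberty and DCIS 3 genes passed, Cdkn2a, Sox11 and Stmn2. Sox11, a transcription factor of embryonic and neural tissue, had 1.66, 2.24, 74.6, 38.1, 70.6 and 109 CPM, with all DCIS and Tumor libraries above Prepuberty. It rose by 5.08 (SE 0.53, edgeR adjusted p = 0.0308; 4.57 to 5.45) and lost the call without Prepuberty 1, Prepuberty 2 or DCIS 1. Stmn2, a microtubule regulator of neurons, had 1 UMI in Prepuberty and 0.119, 0, 10.1, 7.88, 56.6 and 77.2 CPM, a ratio of 80.7 between DCIS and Prepuberty (exact counting interval 14.3 to 3206; edgeR adjusted p = 0.0308, lost without Prepuberty 1, Prepuberty 2 or DCIS 1). The next genes by p did not pass: 1810065E05Rik had 111, 65.1, 3.25, 6.77, 0.568 and 0.595 CPM and 2210407C18Rik had 92.9, 35.9, 2.35, 3, 1.85 and 1.49 CPM, each with an edgeR adjusted p of 0.0717. Both had higher values in Prepuberty than in any later library.

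Between Prepuberty and Tumor the largest rises by the fitted log2 fold change were Acan (at least 318-fold), Klhdc8a, a kelch domain gene (at least 42.8-fold), Cdh2, Cox4i2, a cytochrome oxidase subunit isoform (at least 23.2-fold), Cdkn2a, Csmd1, a complement control protein gene (at least 22.5-fold), Elovl4, a fatty acid elongase gene (at least 18.7-fold), and Klra4 (at least 17.9-fold). Except for Cdkn2a, these had no UMI in Prepuberty members, so their rank rests on the fit. Measured rises above some of these bounds are left out of the list. Examples are Stmn2, from 0.119 and 0 to 56.6 and 77.2 CPM, and Pla2g7, from 2.14 and 2.24 to 411 and 138 CPM. Cox4i2, Csmd1 and Elovl4 were already counted in DCIS, at 1.63 and 2.89, 4.52 and 3.22, and 6.23 and 1.44 CPM. By the same fitted measure the largest falls were Cxcl15, Saa2, Saa1, Cxcl13, a B cell chemokine, Gm16485, BC030870, Cyp3a57, a cytochrome P450, and Pgr. Saa1 fell by 9.96 (SE 0.78, edgeR adjusted p = 0.00224) and Cxcl13 was at least 111-fold lower. In Prepuberty 1 Cxcl13 stood at 5.23 CPM in the members, 18.6 in rule-negative, 65.6 in Pdgfra-positive and 187 in Ptprc-positive cells, and in the tumours at 0 to 1.39 CPM in all 4 classes; a part of RNA from other cells was not tested. Of the 14 of these 16 genes that could be fitted without Prepuberty 1, all 14 lost the call, and 11 of 16 lost it without Prepuberty 2. Without Prepuberty 1 the bound was 225-fold for Cdkn2a, 16-fold for Acan, 2.15-fold for Klhdc8a and 0.899-fold to 1.18-fold for Cdh2, Cox4i2, Csmd1, Elovl4 and Klra4, for which the counts of Prepuberty 2 alone show no rise.

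**Figure D5:**
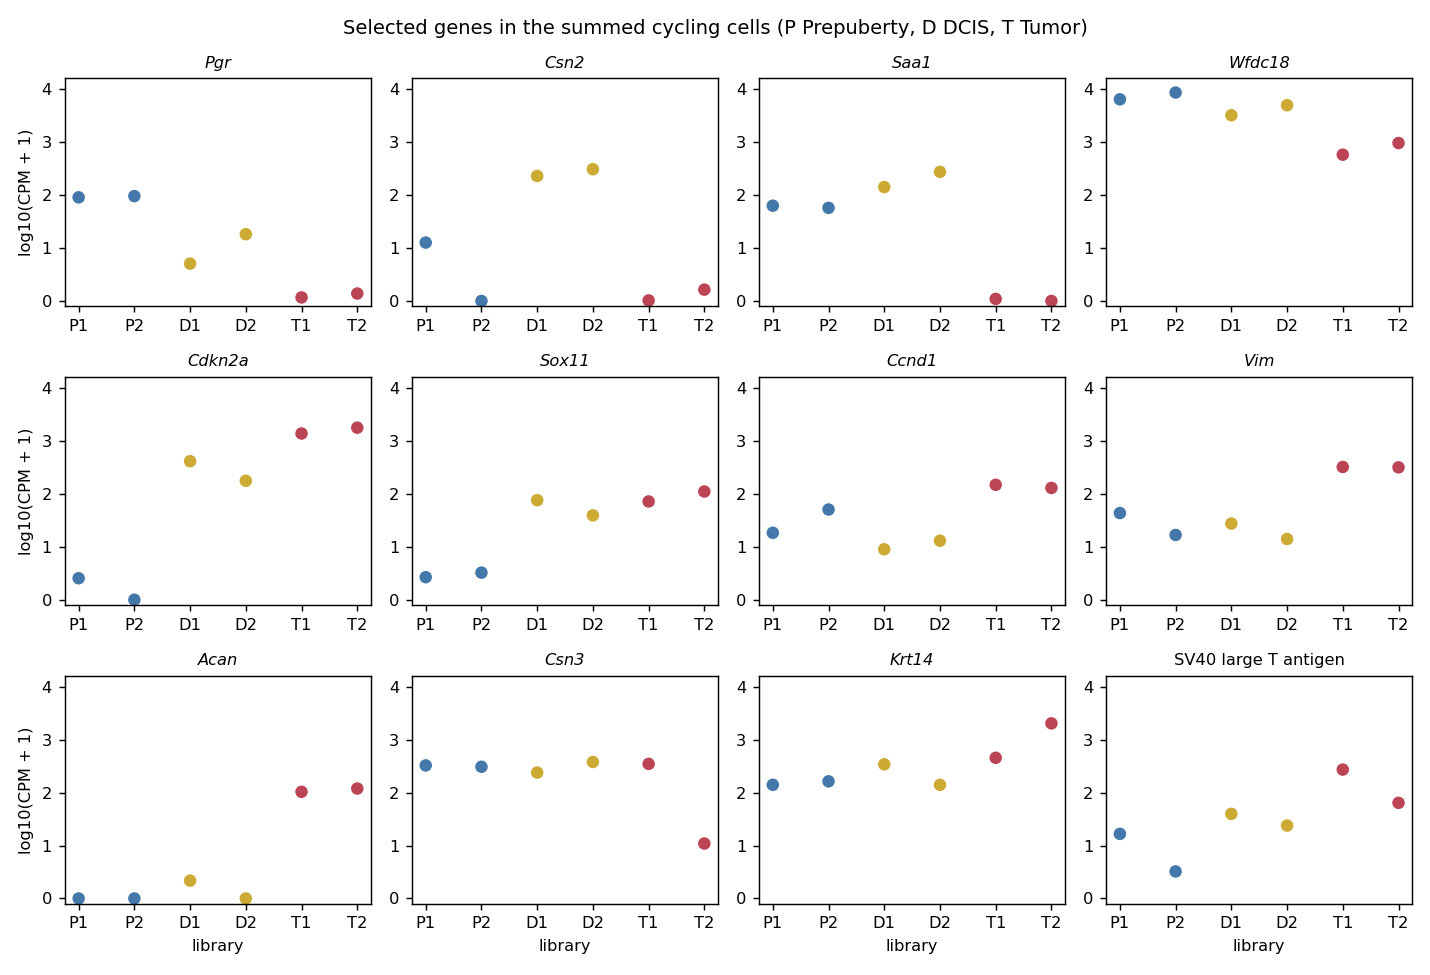
Levels of 12 genes in the summed cycling cells of each library, as log10(CPM + 1), with 1 point per library (P Prepuberty, D DCIS, T Tumor). Pgr, Saa1 and Wfdc18 are lowest in both tumours, Csn2 is highest in both DCIS libraries, Cdkn2a and Sox11 are lowest in both Prepuberty libraries, and in Tumor 2 Csn3 is lowest and Krt14 highest.

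Whether a state difference in the dividing cells matched that in rule-negative epithelium of the same libraries was tested as an interaction in edgeR, with the library as a block, over 13379 genes. Between Tumor and DCIS 2.67% of genes passed, 357, between DCIS and Prepuberty 0.0897%, 12, and between Tumor and Prepuberty 0.411%, 55. Hmox1, heme oxygenase 1, had 62.1, 20.2, 51.7, 71.1, 35.8 and 22.5 CPM in the members but 882, 199, 1204, 1801, 71.9 and 23.6 CPM in the rule-negative cells, an interaction of 4.19 (SE 0.31, edgeR adjusted p = 0.00296). The rule-negative cells of the tumours lay below those of the glands. Slc2a1, the glucose transporter GLUT1, had 19.3, 53.9, 16.5, 28.6, 127 and 27.9 CPM in the members, high in Tumor 1, and 35.5, 97.8, 129, 310, 210 and 46.3 CPM in the rule-negative cells. Of 24 S-phase genes 13 had a negative interaction between Tumor and DCIS, none a positive one, and the median was -2.01. The rule-negative class held more fibroblast, endothelial and macrophage RNA than the members in every library, in the last case 1933 against 119 CPM in Tumor 1, and its part in the interactions was not tested. The lineage mix of the rule-negative cells also changed with state. The myoepithelial marker Acta2 stood at 387, 951, 1934, 2218, 197 and 0.927 CPM in them, against 42.2, 31.4, 55.4, 39.0, 24.8 and 1.87 in the members. The part of this mix in the interactions was not tested either.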

How the data were processed

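The authors deposited 1 matrix of raw UMI counts per library, counted with Cell Ranger 3.0.2 per the file headers. The submitters' processing notes list mm10, with no role stated, and the SV40 large T antigen sequence was added to the reference per the study's methods. Cells with at least 200 genes and under 10% mitochondrial UMIs were kept, which removed 546 and 1045 of 23835 barcodes. The members and all gene lists were chosen with earlier results of these data known.

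UMIs of the members were summed per library (at least 10 cells), since cells are not replicates, and compared with the quasi-likelihood test of edgeR 4.0.16 in R 4.3.3 (TMM, filterByExpr, state as the only term, all 6 libraries in 1 model, Benjamini-Hochberg adjustment). Interactions used rule-negative sums with the library as a block. Printed CPM are not TMM-scaled. Shares were compared over libraries by two-sided exact permutation in scipy 1.17.1. Cells were thinned to 3000 or 6000 UMIs without replacement, and shallower cells left out. Doublets were scored with the Scrublet of scanpy 1.11.5 and kept in the main results. The scripts were tested on simulated data. Gene positions are from GENCODE vM21 (GRCm38), promoters from RefSeq (GRCm38.p6), matched by gene symbol for all 5 rule genes, and start sites can differ between them.

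A gene was named if it passed the threshold, its libraries did not overlap between the states and it was among the 8 largest changes in either direction. With fewer than 5 genes past the threshold the 5 smallest p were named. Of each list up to 4 members with the smallest p, every lineage marker, the rule genes and the T antigen were also eligible, and for interactions the 5 smallest p. A fold against a state with no UMI is a bound set with 3 UMIs over that state. Each fit that leaves a state with 1 library borrows the spread of the other states. Alternatives were DESeq2 1.42.0, RLE scaling, other thresholds of the rule, thinned sums, no filter, only the libraries compared, a replicate block and each library left out. Chosen after seeing the data were the fits on members with 4 or more rule genes in every library, without fibroblast RNA and with at least 10000 UMIs, and the interactions with a library left out. The labels and the study's methods name different sequencers.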

Additional observations from a re-analysis of the deposited data

Results flagged for a closer look

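The results in this section are state differences that were not the same in cycling and in rule-negative epithelial cells of the same libraries, by the interaction test of edgeR. A positive value means that the log2 difference between the states was greater in cycling cells. CPM are given for Prepuberty 1 and 2, DCIS 1 and 2, and Tumor 1 and 2 in that order.

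Between Tumor and DCIS the 5 smallest p were those of Hmox1 (heme oxygenase 1), Srxn1 (sulfiredoxin), Slc2a1 (glucose transporter GLUT1), Emp3 (a membrane protein) and Ckb (brain creatine kinase), with interactions of 4.19, 3.96, 2.65, 2.66 and 3.94 and an adjusted p of 0.00296 each, and all 5 passed with any 1 library left out. Srxn1 had 17.5, 20.2, 5.60, 8.33, 26.8 and 14.6 CPM in cycling cells and 127, 64.4, 87.9, 147, 35.1 and 15.8 CPM in rule-negative cells. Emp3 had 12.2 and 7.55 CPM in cycling cells of DCIS and 213 and 121 CPM in those of Tumor, beside 77.5, 39.7, 214 and 130 CPM in rule-negative cells. Ckb had 4.61, 3.78, 15.4 and 2.68 CPM in the same libraries, beside 115, 157, 32.3 and 7.88 CPM.

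Between DCIS and Prepuberty they were Hspa1a (inducible HSP70), 3.68, adjusted p 0.00378; Tagln (transgelin, an actin-binding protein of smooth muscle), -3.21, adjusted p 0.00414; Pla2g7 (a lipoprotein-associated phospholipase), 3.87, Dst (dystonin), -2.76, and Slc2a1, -2.38, each with an adjusted p of 0.0136 in edgeR. Every one of these calls was lost without Prepuberty 1, where Pla2g7 had an interaction of 2.17. Pla2g7 and Slc2a1 also lost it without DCIS 2, Slc2a1 without Prepuberty 2, and Dst without Prepuberty 2, DCIS 1 or DCIS 2. Hspa1a had 10.6, 42.6, 1146 and 1008 CPM in cycling cells of these libraries and 110, 380, 760 and 819 CPM in rule-negative cells. Tagln had 136, 426, 59.3 and 115 CPM beside 236, 526, 918 and 1317 CPM.

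Between Tumor and Prepuberty they were Hbb-bs (adult beta-globin), 11.6, adjusted p 0.00149; and Lgals1 (galectin-1), 2.93, Col18a1 (collagen XVIII), 3.49, Hspa1a, 3.19, and Emp3, 2.98, each with an adjusted p of 0.00404 in edgeR. All lost the call without Prepuberty 1, whose rule-negative cells had 148 CPM of Hbb-bs, and without it the Hbb-bs value was 4.57. Lgals1 had 201, 87.5, 410, 308, 1934 and 1196 CPM in cycling cells and 1393, 760, 826, 634, 2322 and 1183 CPM in rule-negative cells. The 6 fibroblast genes summed to 3083, 570, 2666, 774, 5797 and 1997 CPM in rule-negative cells and to 309, 44.9, 110, 105, 259 and 366 CPM in cycling cells, and the part of this RNA in these values was not tested. Rule-negative cells of the glands also held more myoepithelial-like calls than those of the tumours. The part of this lineage mix in the interactions of this section was not tested.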

How the results depend on the processing

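Of the values of single genes under the alternatives (the genes named by size or p, the T antigen, and the listed genes past the threshold), 1548 kept their direction and side of the threshold, 421 lost the threshold, 15 gained it and 4 turned their sign. Those 4 were between Tumor and Prepuberty without Prepuberty 1, where Myh11 came to 4.32, Csn2 to 5.15, Csn1s2a to 4.73 and Lalba to 2.33, with edgeR adjusted p of 0.859 to 0.945. The lowest values with 1 library left out were -5.26, -8.30, -9.66 and -9.18. These are fits against Prepuberty 2, which has 11 members and no UMI of these genes, so they give no direction. Counts of called genes moved more; except where a dropped library is named, the cause was not tested. Between Tumor and DCIS, against 539, they were 84 with 4 or more rule genes (which also drops Prepuberty 2, with 7 such cells; 529 with it kept), 1197 by DESeq2, 119 with library sums thinned, 1923 with no filter on low counts, 122 with only the libraries compared, and 37 (without DCIS 2) to 2383 (without Tumor 1) with 1 library left out. Between DCIS and Prepuberty, against 3, they were 0 with 4 or more rule genes (1 with all libraries kept), 265 by DESeq2, 533 with no filter, 260 with only the libraries compared, and 0 (without either Prepuberty library) to 450 (without Tumor 2). Between Tumor and Prepuberty, against 712, they were 14 with 4 or more rule genes (777 with Prepuberty 2 kept), 1390 by DESeq2, 320 thinned, 2073 with no filter, 431 with only the libraries compared, and 0 (without Prepuberty 1) to 2260 (without Tumor 1). In the order Tumor and DCIS, DCIS and Prepuberty, Tumor and Prepuberty, interactions were 557, 135 and 244 by DESeq2, against 357, 12 and 55, and with 1 library left out 49 to 669, 0 to 75 and 1 to 465. RLE scaling gave counts of 562, 3 and 753 between states.

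Shares moved with depth. At 3000 UMIs the cycling share differed by 17.2 points (Tumor minus DCIS) and 22.5 (Tumor minus Prepuberty), hormone-sensing-like calls by -0.431 (Tumor minus DCIS) and -2.97 (DCIS minus Prepuberty), and the T antigen share by 19.5 (Tumor minus DCIS), 7.95 (DCIS minus Prepuberty) and 27.5 (Tumor minus Prepuberty, 42.9 at 6000 UMIs). Progenitor-like calls, DCIS minus Prepuberty, differed by -32.0 points at 3000 UMIs, -28.9 at 6000, -7.91 with 2 and -26.3 with 4 markers required, and myoepithelial-like calls by 1.04 (3000 UMIs), 6.81 (2 markers) and 1.44 (4 markers).

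Libraries of different states share the numbers 1 and 2. Deviations of same-numbered libraries correlated across genes at 0.0904 (Prepuberty and DCIS), -0.0222 (Prepuberty and Tumor) and -0.0712 (DCIS and Tumor). Whether these libraries share more than the number was not tested further. With the replicate block the counts were 417, 12 and 547. With 2 libraries per state no permutation test can pass a threshold of 0.05, and 11 members in Prepuberty 2 limit every comparison with Prepuberty.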
